A study of Mus musculus with 4 samples.

Results

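Most Clec genes encode proteins with a C-type lectin-like domain. All 32 rows whose symbol starts with Clec followed by a digit were taken from the 24421 rows of a deposited table of gene FPKM values, that is, fragments scaled to transcript length and to sequencing depth. The table holds 4 libraries of polyadenylated RNA, 1 per mouse. Mice WT-139 and WT-140 carried an intact Usp25 gene (genotype Usp25+/+), and mice KO-826 and KO-850 lacked it (Usp25-/-). Usp25 encodes a protease that removes ubiquitin from other proteins. All 4 were C57BL/6 mice aged 8 weeks that drank 2.5% dextran sulfate sodium (DSS), an agent that injures the gut lining, for 5 days and then normal water for 2 days. No untreated mice are among the samples, so every level given here is a level after DSS. The labels give the tissue as a short piece of colon near the anus, and nothing in them says how the Usp25 allele was made or whether the mice of a genotype came from separate litters.

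C-type lectin receptors of this family are found mainly on myeloid cells, where they bind fungal and mycobacterial glycans, glycolipids and material from dead cells. Some reach the kinase Syk through the adaptors Fcer1g or Tyrobp, which carry paired activation motifs (ITAMs). Others carry a single such motif of their own (a hemITAM), and Syk then signals through Card9, Bcl10 and Malt1 to NF-kappaB. A further group carries an inhibitory motif (ITIM) that recruits the phosphatases Ptpn6, Ptpn11 and Inpp5d. In mouse most of the family lies on chromosome 6, in the Clec4 cluster and the natural killer gene complex.

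The libraries were first checked against their labels. Usp25 was at 38.5 and 16.6 FPKM in Usp25+/+, against 2.65 and 1.71 FPKM in Usp25-/-, so it followed the genotype. The tissue label was not borne out by marker genes. Of 10 colon epithelium markers, 7 stayed below 1 FPKM in every mouse, and Zg16, Aqp8 and Cdx1 were listed at 0 in all 4. Their sums were 5.12 and 3.27 FPKM in Usp25+/+, against 55.3 and 7.95 FPKM in Usp25-/-, and the 55.3 of mouse KO-826 was nearly all Krt20. By contrast, 7 lung epithelium markers summed to between 2237 and 5226 FPKM, and 10 genes known from alveolar macrophages to between 7684 and 11520 FPKM. Chil3 alone, at 6219 to 8882 FPKM, made up most of the latter sum in each mouse. Mouse WT-139 differed from the rest. Its 11 measured neutrophil markers summed to 42739 FPKM, against 786 in mouse WT-140, 2207 in mouse KO-826 and 1294 in mouse KO-850, and all 11 were highest there. Fewer genes were listed at 0 in mouse WT-139, 3862 against 8813 in mouse WT-140, 7175 in mouse KO-826 and 8612 in mouse KO-850. Of the Clec genes, 1 was at 0 in mouse WT-139, against 8 in WT-140, 7 in KO-826 and 7 in KO-850. Whether a listing at 0 means the same in each library was not tested. Results that rest on mouse WT-139 are therefore given with and without it.

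Of the 32 Clec genes, 24 lie on chromosome 6 (mm9). Clec4d and Clec4e are neighbours at one end of the Clec4 cluster, Clec4d at 123212125 to 123225286 on the plus strand and Clec4e at 123231807 to 123239889 on the minus strand. Clec7a lies in the natural killer gene complex, at 129411611 to 129422790 on the minus strand. The 250 bases before the start of these 3 genes are shown because Clec4d and Clec4e made up most of the Clec signal in 1 mouse, WT-139, while the highest level of Clec7a was only 1.49 times its lowest. The windows are RefSeq promoters (GRCm38.p6) placed on mm9 by exact match, at chr6:123211875-123212124 (plus strand) for Clec4d, chr6:123239890-123240139 (minus strand) for Clec4e and chr6:129422798-129423047 (minus strand) for Clec7a, written from 5′ to 3′. Capitals mark a match to a searched word on either strand.
Clec4d: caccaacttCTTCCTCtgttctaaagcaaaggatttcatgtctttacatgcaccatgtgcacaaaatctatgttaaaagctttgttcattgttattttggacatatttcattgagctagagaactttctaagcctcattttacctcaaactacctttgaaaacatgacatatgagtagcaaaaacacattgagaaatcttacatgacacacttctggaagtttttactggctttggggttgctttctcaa
Clec4e: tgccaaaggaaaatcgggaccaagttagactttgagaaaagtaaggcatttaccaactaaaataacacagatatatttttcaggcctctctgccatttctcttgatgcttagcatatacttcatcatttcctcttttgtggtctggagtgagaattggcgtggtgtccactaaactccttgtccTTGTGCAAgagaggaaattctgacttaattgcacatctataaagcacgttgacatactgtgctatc
Clec7a: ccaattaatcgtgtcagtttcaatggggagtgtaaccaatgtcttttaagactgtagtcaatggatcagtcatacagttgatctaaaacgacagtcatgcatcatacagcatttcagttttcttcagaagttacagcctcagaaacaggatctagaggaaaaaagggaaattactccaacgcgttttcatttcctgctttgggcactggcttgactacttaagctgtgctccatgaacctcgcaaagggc

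The 5 words searched were those of C/EBP (TTGCNNAA), AP-1 (TGANTCA), PU.1 (GAGGAAG), STAT (TTCNNNGAA) and kappaB, on both strands and counting overlapping matches. The Clec4d window held 1 PU.1 word, which 10.6% of 32851 promoters of the same length hold. In the Clec4e window there was 1 C/EBP word, held by 9.56% of promoters. The AP-1, STAT and kappaB words, held by 6.75%, 7.02% and 7.25% of promoters, were not in these 3 windows, and the Clec7a window held none of the 5. These matches describe letters and are no evidence of binding.

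The family spanned a wide range of levels. Between 18 and 20 of the 32 genes reached 1 FPKM in each mouse, and 9 reached 10 FPKM in every mouse. Clec4n, Clec7a, Clec4d and Clec4e together made up 91.6% of the summed Clec FPKM in mouse WT-139, 74.5% in mouse WT-140, 82.7% in mouse KO-826 and 79.5% in mouse KO-850. The sum itself came to 3152 FPKM for mouse WT-139, while the other 3 mice lay between 1192 and 1223 FPKM. Without Clec4d and Clec4e it ran from 886 to 1095 FPKM and was lowest in mouse WT-139, so these 2 genes alone carried the high total of that mouse. They held 71.9% of the Clec signal there, against 9.32% in mouse WT-140, 20.1% in mouse KO-826 and 10.5% in mouse KO-850.

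**Figure D1:**
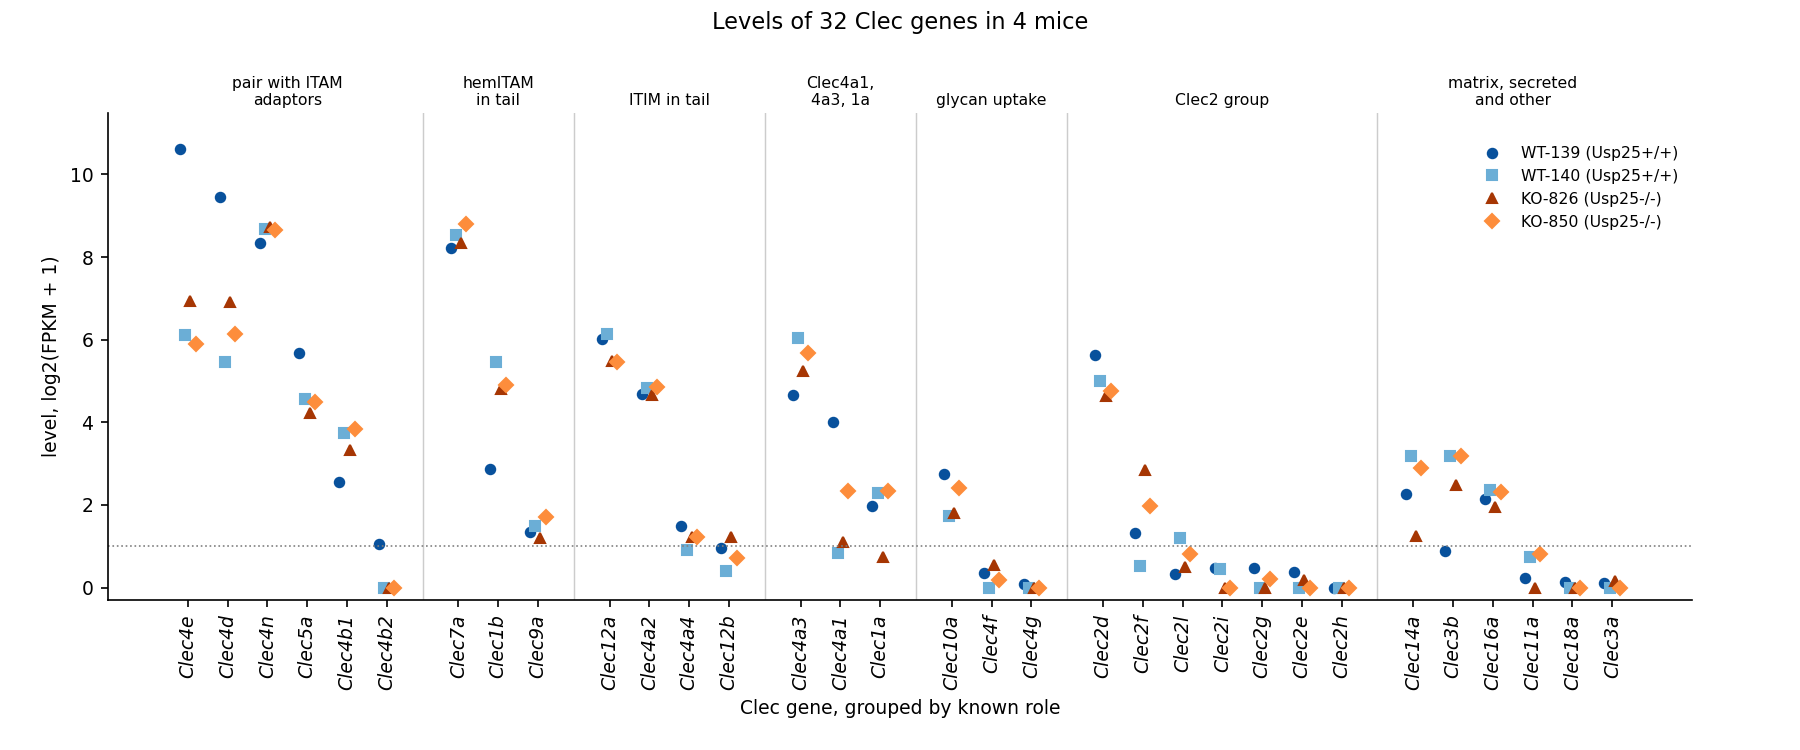
Level of each of the 32 Clec genes as log2(FPKM + 1), grouped by known role, with 1 symbol per mouse and a dotted line at 1 FPKM. Clec4e and Clec4d lie far higher in mouse WT-139 than in the other 3 mice, while Clec4n and Clec7a are close together in all 4.

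**Figure D2:**
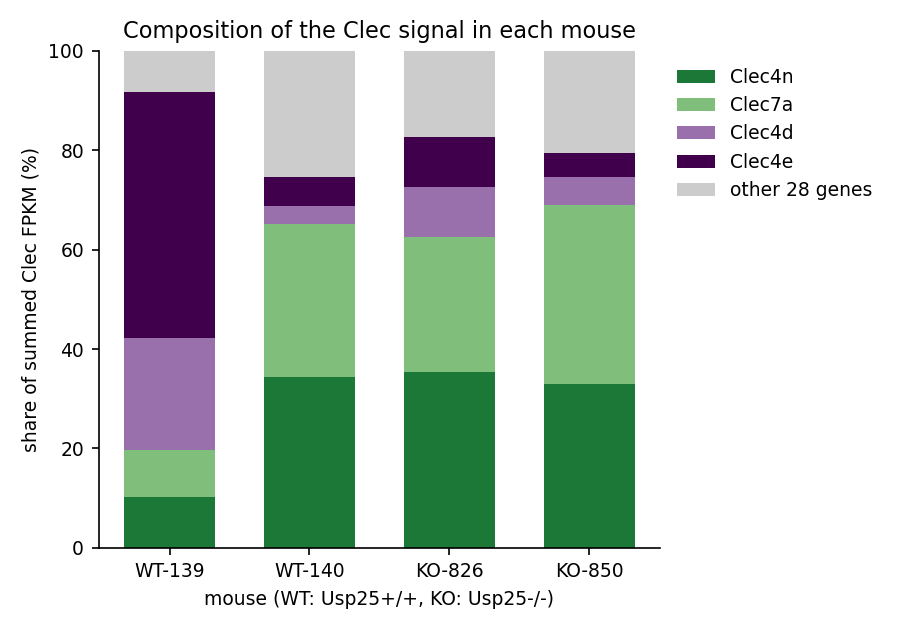
Share of the summed Clec FPKM held by Clec4n, Clec7a, Clec4d, Clec4e and the other 28 genes in each mouse, in percent. Clec4d and Clec4e hold 71.9% in mouse WT-139 and no more than 20.1% in the others.

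Usp25-/- was compared with Usp25+/+ by limma on log2(FPKM + 1), over the 12103 genes that reached 1 FPKM in at least 2 mice. This scale understates the change of low genes. Of the 32 Clec genes 20 were tested, and 12 were too low. No tested Clec gene passed a Benjamini-Hochberg adjusted p of 0.05, and neither did any other gene (0% of those tested), the smallest adjusted p of all being 0.346. Usp25 itself was not called either, with a log2 difference of -3.07 ± 0.47 (SE, adjusted p = 0.968 by limma). At an unadjusted p under 0.05 there was 1 Clec gene, Clec2f, and 400 genes in all (3.30%). Groups that did not overlap, meaning that both mice of a genotype lay on the same side of both others, were found for 1 Clec gene with higher values in Usp25-/- (19.0% of all genes tested) and for 3 with lower values (14.7%). The remaining 16 overlapped. These shares do not set the Clec genes apart from the background.

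The median log2 difference (Usp25-/- minus Usp25+/+) of the 20 tested genes was -0.07, with 9 differences above 0 and 11 below. Over all genes tested it was 0.03. The single Clec differences were larger in size, with a median of 0.61 without regard to sign against 0.28 over all genes. They also spread more between single mice, as the median range over the 4 mice was 1.33 log2 units against 0.79. Of the 20 genes, 7 were highest in mouse WT-139 (35.0%, against 29.7% of all genes) and 6 were lowest there (30.0%, against 39.1%). Without this mouse 9 of the 20 differences turned sign, and the median became -0.12 (-0.01 over all genes). Only Clec12a, Clec2d, Clec2f, Clec4n and Clec5a kept their sign when each mouse was left out in turn. Adjusted p from limma lay between 0.968 and 0.999 for all 20 genes.

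**Figure D3:**
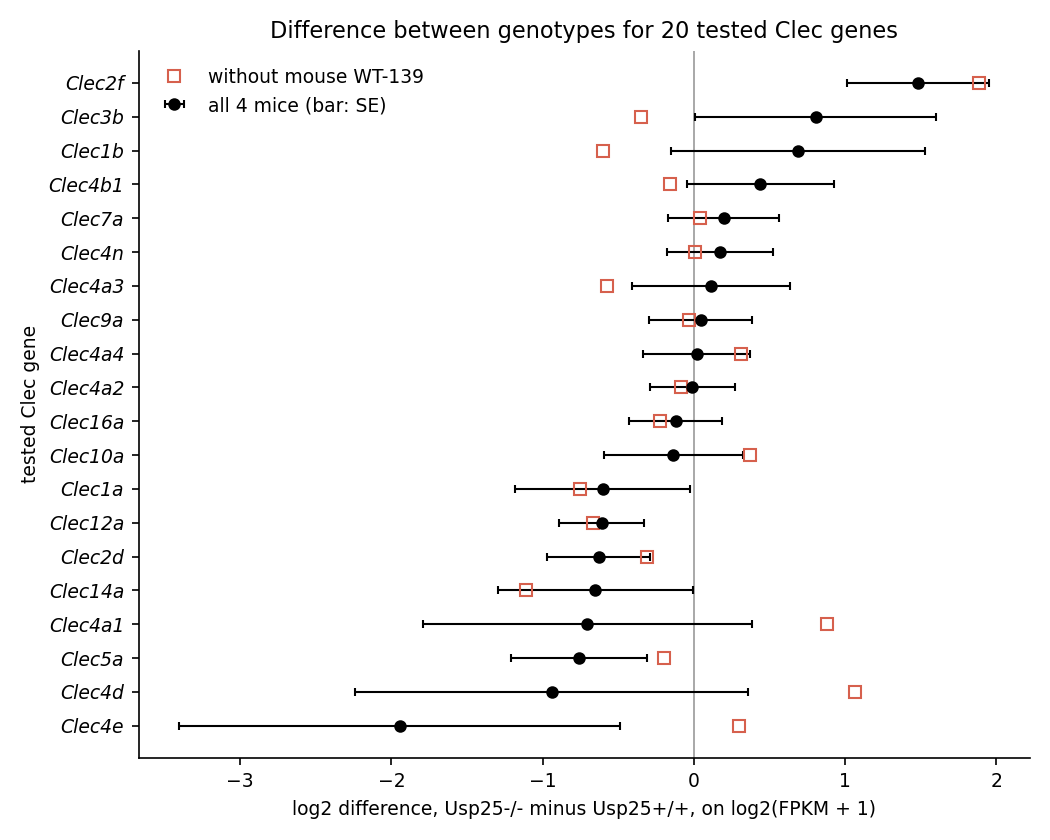
Log2 difference between Usp25-/- and Usp25+/+ on log2(FPKM + 1) for the 20 tested Clec genes, with all 4 mice (filled circles, bars are standard errors) and without mouse WT-139 (open squares). Clec4e and Clec4d have the widest bars and lie on opposite sides of 0 with and without that mouse.

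Among the receptors that pair with ITAM adaptors, Clec4e varied most. Clec4e (Mincle), a receptor for mycobacterial cord factor and for material from dying cells, was at 1560.0 FPKM in mouse WT-139, 68.3 in mouse WT-140, 121 in mouse KO-826 and 58.7 in mouse KO-850. Mouse WT-139 was 12.9 times the next highest, and the other Usp25+/+ mouse lay between the 2 Usp25-/- mice. The gene ranked 33 among all genes in mouse WT-139 and no higher than 615 in the others. Its log2 difference was -1.95 ± 1.46 (SE, adjusted p = 0.968 by limma). Without mouse WT-139 it was 0.30.

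Clec4d (MCL), which forms a receptor complex with Clec4e, was at 706 FPKM in mouse WT-139, 42.8 in mouse WT-140, 119 in mouse KO-826 and 69.3 in mouse KO-850. Again mouse WT-139 was far above the rest, at 5.95 times the next highest, and mouse WT-140 was the lowest of all. The log2 difference was -0.94 ± 1.30 (SE, adjusted p = 0.968 by limma), and 1.07 without mouse WT-139. The ratio of Clec4e to Clec4d FPKM was not constant either. It was 2.21 in mouse WT-139, 1.60 in mouse WT-140, 1.02 in mouse KO-826 and 0.847 in mouse KO-850.

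When mouse WT-140 was left out, Clec4e became the only Clec gene past the adjusted threshold, with a log2 difference of -4.19 (adjusted p = 0.0491 by limma). In that fit mouse WT-139 alone stands for Usp25+/+ and is assumed to vary like the other genotype, and 163 of 11793 genes passed (1.38%). Clec4d then had a log2 difference of -2.95. The call therefore rested on the mouse with the high neutrophil markers. Clec4d ranked the mice as the neutrophil sum did, with WT-139 highest, then KO-826, KO-850 and WT-140. For Clec4e the last 2 places were exchanged. S100a8 and S100a9 made up most of the neutrophil sum in each mouse. Both gave its order, as did Retnlg, Il1r2, Ngp, Camp, Ltf and Mmp9. Csf3r, Cxcr2 and Mmp8 did not, being higher in mouse KO-850 than in mouse KO-826. Among monocyte markers, 6 measured genes summed to 212 and 33.9 FPKM in Usp25+/+, against 36.9 and 45.2 FPKM in Usp25-/-. The part of either cell type in the result was not tested. In bulk tissue, fewer cells of a type and less RNA per cell cannot be told apart.

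**Figure D4:**
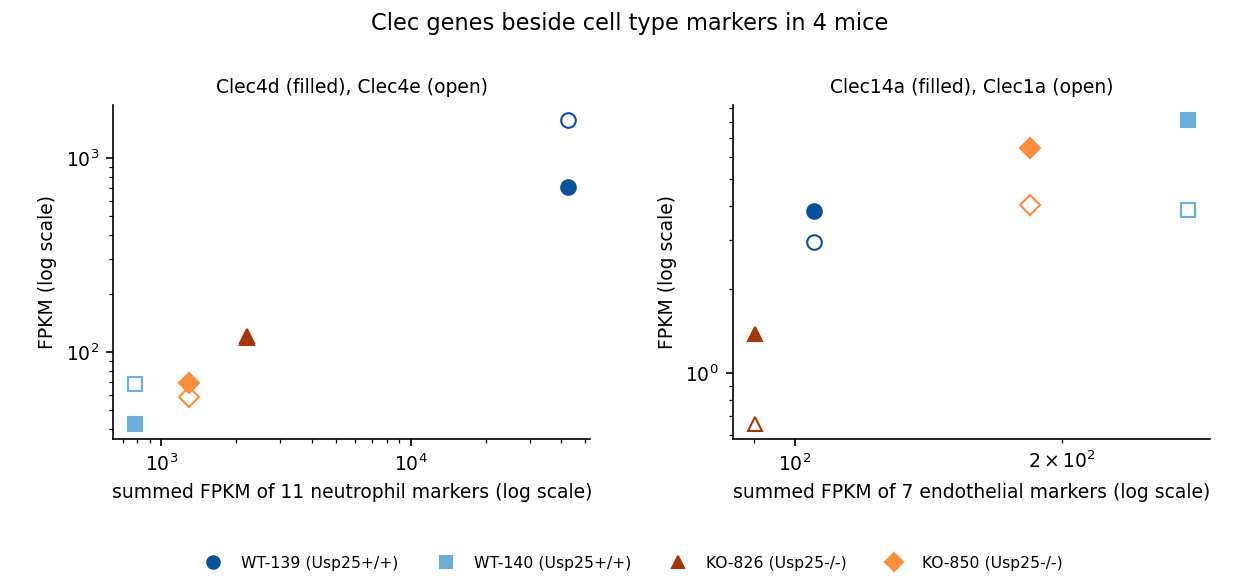
Clec genes plotted against the summed FPKM of cell type markers, 1 symbol per mouse, all axes on a log scale. Left, Clec4d (filled) and Clec4e (open) against 11 neutrophil markers, with mouse WT-139 far from the rest, and the 2 genes nearly superposed in mouse KO-826. Right, Clec14a (filled) and Clec1a (open) against 7 endothelial markers, with mouse KO-826 lowest.

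Clec4n (Dectin-2), a receptor for fungal mannans that signals through Fcer1g, varied less between mice than these 2 neighbours. It stood at 325 and 411 FPKM in Usp25+/+, against 423 and 402 FPKM in Usp25-/-. The groups overlapped, and the highest value was 1.30 times the lowest. The log2 difference was 0.18 ± 0.35 (SE, adjusted p = 0.975 by limma), and 0.01 without mouse WT-139. Clec4n was thus among the 252 most abundant genes in all 4 mice.

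Clec5a, a receptor of monocytes and neutrophils that pairs with Tyrobp and Hcst, was at 50.6 and 22.6 FPKM in Usp25+/+, against 17.8 and 21.6 FPKM in Usp25-/-. Both Usp25-/- values lay below both others, but WT-140 and KO-850 differed little. The log2 difference was -0.76 ± 0.45 (SE, adjusted p = 0.968 by limma) and shrank to -0.20 without mouse WT-139, which was 2.24 times the next highest. Clec4b1, an Fcer1g-coupled receptor of the same cluster, was at 4.84 and 12.4 FPKM in Usp25+/+ and 9.03 and 13.4 FPKM in Usp25-/-. Here mouse WT-139 was the lowest, and the difference of 0.44 ± 0.49 (SE, adjusted p = 0.968 by limma) became -0.16 without it. Clec4b2 was at 1.09 FPKM in mouse WT-139, listed at 0 in the other 3, and not tested.

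Along the cluster, whose order is Clec4a1, Clec4a3, Clec4a4, Clec4b1, Clec4a2, Clec4b2, Clec4n, Clec4d and Clec4e, not all neighbours moved together. Clec4d and Clec4e were highest in mouse WT-139, as were Clec4a1, Clec4a4 and Clec4b2. Clec4n, Clec4a3 and Clec4b1 were lowest there. Some of these genes share sequence, which can blur their values, since how reads with several matches were treated is not given in the sources used here. Of the 50-base words in its transcripts, Clec4a4 shares 15.7% and Clec4b1 8.68% with Clec4a2. Clec4d, Clec4e, Clec4n and Clec7a share none with other protein-coding genes, the only ones searched.

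**Figure D5:**
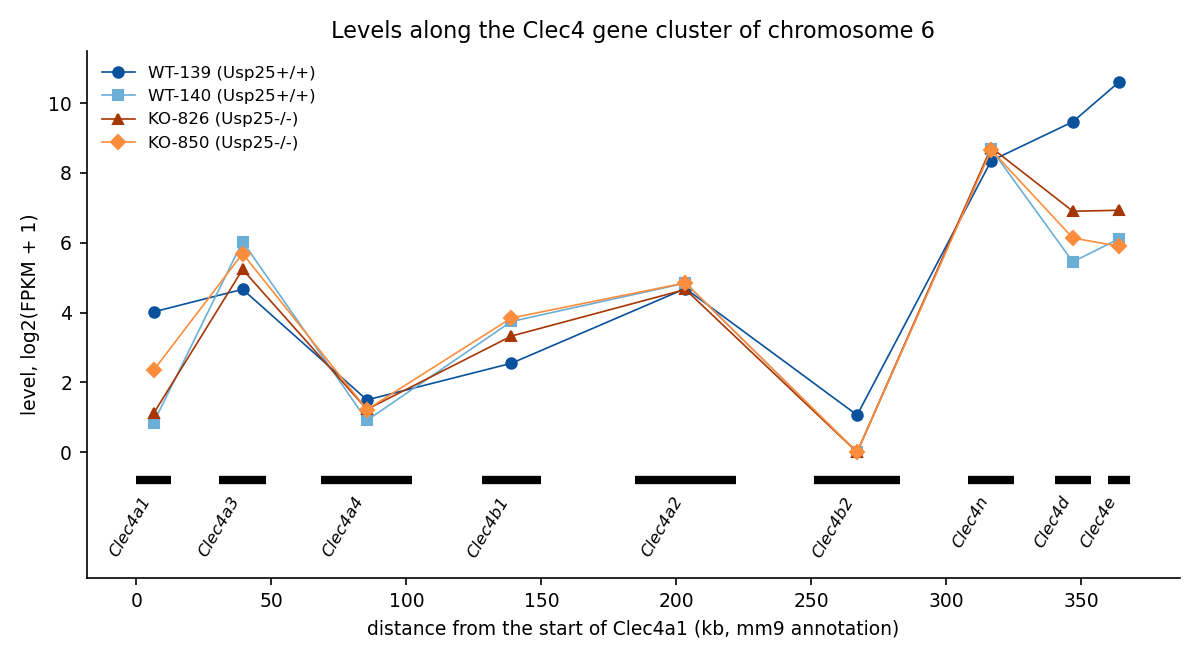
Level of the 9 genes of the Clec4 cluster on chromosome 6 as log2(FPKM + 1), against distance in kb from the start of Clec4a1, with 1 line per mouse and gene spans as black bars. The lines of the 4 mice meet at Clec4a2 and Clec4n, and that of mouse WT-139 leaves the others at Clec4d, Clec4e and Clec4a1.

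The hemITAM receptors were led by Clec7a (Dectin-1), the receptor for fungal beta-glucan. It was at 297 and 367 FPKM in Usp25+/+, against 325 and 441 FPKM in Usp25-/-, again with overlapping groups. Its log2 difference was 0.20 ± 0.37 (SE, adjusted p = 0.975 by limma), and 0.04 without mouse WT-139. Together with Clec4n it made up between 62.6% and 69.0% of the Clec signal in the 3 mice other than WT-139, and 19.7% in that mouse.

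Clec1b (CLEC-2), the podoplanin receptor best known from platelets, was at 6.35 FPKM in mouse WT-139, 42.8 in mouse WT-140, 26.8 in mouse KO-826 and 29.0 in mouse KO-850. Mouse WT-139 was the low one, and the Usp25-/- mice lay between the 2 others. The log2 difference of 0.69 ± 0.84 (SE, adjusted p = 0.968 by limma) became -0.60 without mouse WT-139. Of 6 platelet markers, 3 stayed below 1 FPKM in every mouse (Gp1ba, Gp9 and the integrin gene Itga2b). The chemokine gene Pf4 was higher, at 12.4 and 11.0 FPKM in Usp25+/+ and 24.4 and 20.6 FPKM in Usp25-/-, and did not overlap between genotypes, with a log2 difference of 0.88 ± 0.28 (SE, adjusted p = 0.968 by limma). Ppbp ran from 0.646 to 19.2 FPKM and Itgb3 from 1.64 to 7.32 FPKM. The 6 markers summed to 37.6 and 14.0 FPKM in Usp25+/+ and 46.4 and 27.1 FPKM in Usp25-/-, lowest in mouse WT-140, where Clec1b was highest. The part of platelets in the Clec1b values was not tested. Pdpn, the gene of podoplanin, was at 55.3 and 48.2 FPKM in Usp25+/+ and 82.2 and 40.1 FPKM in Usp25-/-.

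Clec9a (DNGR-1), which binds exposed actin of dead cells and marks cross-presenting dendritic cells, was low. It was at 1.52 and 1.80 FPKM in Usp25+/+ and 1.31 and 2.26 FPKM in Usp25-/-, with a log2 difference of 0.05 ± 0.34 (SE, adjusted p = 0.995 by limma). Xcr1, a marker of the same dendritic cells, stayed between 0.395 and 0.573 FPKM. Batf3, also on the list of dendritic cell markers, ran from 1.30 to 4.26 FPKM. The 10 markers of that list summed to 22.4 and 20.5 FPKM in Usp25+/+ and 12.2 and 31.8 FPKM in Usp25-/-. Ccr7 alone, at 6.86 to 16.2 FPKM, made up most of that sum in each mouse. In the mm9 annotation Clec1b and Clec9a share exon bases on the plus strand, and Clec1a spans both on the minus strand with no exon base in common. Fragments from the bases common to Clec1b and Clec9a, which lie on the same strand, may not be fully separable.

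Of the ITIM receptors, Clec12a (MICL), which binds uric acid crystals and restrains myeloid activation, was at 63.8 and 69.3 FPKM in Usp25+/+, against 43.6 and 42.8 FPKM in Usp25-/-. Both Usp25-/- values were below both others, and the mice of each genotype lay close together, with means of 66.6 ± 3.89 and 43.2 ± 0.563 FPKM (SD, n = 2). The log2 difference was -0.61 ± 0.28 (SE, adjusted p = 0.968 by limma). It ran from -0.67 to -0.55 when each mouse was left out in turn. It did not depend on mouse WT-139, but it did not pass the test across all genes.

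Clec4a2 (DCIR), a broadly expressed inhibitory receptor, was the steadiest of the tested Clec genes by the ratio of its highest to its lowest value, 1.15. It stood at 24.8 and 27.7 FPKM in Usp25+/+ and 24.3 and 27.8 FPKM in Usp25-/-, and the log2 difference was -0.01 ± 0.28 (SE, adjusted p = 0.999 by limma). Clec4a4 (DCIR2) was at 1.82 and 0.880 FPKM in Usp25+/+ and 1.34 and 1.33 FPKM in Usp25-/-, a log2 difference of 0.02 ± 0.35 (SE, adjusted p = 0.998 by limma). Clec12b was at 0.934 and 0.332 FPKM in Usp25+/+ and 1.32 and 0.646 FPKM in Usp25-/-, too low to be tested. None of these 3 separated the genotypes.

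Clec4a3 and Clec4a1 are DCIR-like genes without a classical ITIM, and Clec1a is a myeloid and endothelial receptor for fungal melanin. Clec4a3 was at 24.4 and 64.5 FPKM in Usp25+/+ and 36.7 and 50.6 FPKM in Usp25-/-, with mouse WT-139 lowest. Its log2 difference was 0.11 ± 0.52 (SE, adjusted p = 0.990 by limma), and -0.57 without that mouse. Clec4a1 ran the other way, at 15.2 and 0.798 FPKM in Usp25+/+ and 1.16 and 4.08 FPKM in Usp25-/-. Mouse WT-139 was the highest, and the 19.1-fold range between mice left a difference of -0.70 ± 1.09 (SE, adjusted p = 0.970 by limma), or 0.88 without that mouse. Clec1a was at 2.95 and 3.86 FPKM in Usp25+/+ and 0.658 and 4.03 FPKM in Usp25-/-. Only mouse KO-826 stood low, and the difference of -0.60 ± 0.58 (SE, adjusted p = 0.968 by limma) became 0.20 without it.

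The lectins of glycan uptake were scarce. Clec10a (MGL1), which takes up galactose-type glycans and is found on macrophages and dendritic cells, was at 5.74 and 2.35 FPKM in Usp25+/+ and 2.51 and 4.32 FPKM in Usp25-/-. The groups overlapped, with a log2 difference of -0.13 ± 0.46 (SE, adjusted p = 0.984 by limma), or 0.37 without mouse WT-139. Clec10a shares 14.3% of its 50-base words with its paralog Mgl2. Clec4f, a Kupffer cell lectin, and Clec4g, a lectin of liver sinusoids, stayed at or below 0.463 FPKM, and 5 liver markers summed to at most 2.36 FPKM.

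The Clec2 group holds ligands of the Klrb1 receptors of natural killer cells. Clec2d, the ligand of the inhibitory receptor Klrb1b, was at 48.8 and 30.9 FPKM in Usp25+/+, against 23.7 and 25.9 FPKM in Usp25-/-. Both Usp25-/- values were the lower ones, with a log2 difference of -0.63 ± 0.34 (SE, adjusted p = 0.968 by limma), or -0.31 without mouse WT-139. Klrb1b itself was at 6.45 and 9.70 FPKM in Usp25+/+ and 7.67 and 6.09 FPKM in Usp25-/-. The pair thus had a more abundant ligand than receptor in every mouse, and the receptor's groups overlapped.

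Clec2f was the only tested Clec gene with both Usp25-/- mice above both Usp25+/+ mice. It was at 1.51 and 0.432 FPKM in Usp25+/+ and 6.18 and 2.91 FPKM in Usp25-/-, a log2 difference of 1.48 ± 0.47 (SE, adjusted p = 0.968 by limma). The difference stayed between 1.04 and 1.92 when each mouse was left out in turn. Several limits apply. The levels are low, it passed the filter on low values only through 3 mice, and with a floor of 1 FPKM in all 4 mice it was not tested. The annotation holds it as the pseudogene Clec2f-ps on chromosome 6 (mm9) from 128968600 to 128970537, with exon bases in common with Clec2g, so its value depends on how the authors assigned fragments there. Clec2g was no higher than 0.382 FPKM.

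The other Clec2 genes were near the bottom of the range. Clec2l, known from brain, was at 0.266 and 1.29 FPKM in Usp25+/+ and 0.416 and 0.754 FPKM in Usp25-/-. Clec2i was at 0.389 and 0.376 FPKM in Usp25+/+ and listed at 0 in both Usp25-/- mice, below the level tested. Clec2e reached 0.289 FPKM. Clec2h, a gene known from gut epithelium, was the only Clec gene listed at 0 in all 4 mice. Of the 10 colon epithelium markers, 7 stayed below 1 FPKM in every mouse, while Krt20 ran from 3.11 to 52.4 FPKM.

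Among the Clec genes that are not immune receptors of these types, Clec14a, an endothelial surface protein, was at 3.84 and 8.11 FPKM in Usp25+/+ and 1.39 and 6.48 FPKM in Usp25-/-. Mouse KO-826 was lowest and mouse WT-140 highest. The log2 difference was -0.65 ± 0.64 (SE, adjusted p = 0.968 by limma), and 0.17 without mouse KO-826. The 7 endothelial markers summed to 105 and 277 FPKM in Usp25+/+ and 90.1 and 184 FPKM in Usp25-/-, the same order of mice as Clec14a. In Clec1a mouse KO-826 was lowest too. The part of endothelial cells in these values was not tested.

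Clec3b (tetranectin), a secreted plasminogen-binding protein of connective tissue, was at 0.843 and 8.15 FPKM in Usp25+/+ and 4.61 and 8.17 FPKM in Usp25-/-. Mouse WT-139 was far below the others, and the difference of 0.81 ± 0.80 (SE, adjusted p = 0.968 by limma) became -0.35 without it. Clec16a, an intracellular regulator of mitophagy, was even, at 3.45 and 4.11 FPKM in Usp25+/+ and 2.89 and 3.94 FPKM in Usp25-/-, a log2 difference of -0.12 ± 0.31 (SE, adjusted p = 0.980 by limma). The secreted Clec11a reached 0.766 FPKM, and Clec3a, a cartilage lectin, and Clec18a reached less. In all, 9 Clec genes stayed below 1 FPKM in every mouse, and 3 more (Clec12b, Clec2l and Clec4b2) reached it in a single mouse.

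The signalling genes behind these receptors ranged widely in level, and 12 of 17 adaptor and kinase genes reached 10 FPKM in all 4 mice. Fcer1g was at 1177 and 740 FPKM in Usp25+/+ and 654 and 659 FPKM in Usp25-/-, and Tyrobp at 1032 and 1656 FPKM against 1255 and 1038 FPKM. All 17 were tested, and 3 had a higher mean in Usp25-/- and 14 a lower one. By limma none passed the adjusted threshold and 0 had an unadjusted p under 0.05. Groups did not overlap for 7 genes with lower values (14.7% of all genes tested did so) and for Src with higher ones (19.0%). Syk was at 128 and 64.8 FPKM in Usp25+/+ and 41.4 and 51.4 FPKM in Usp25-/-, a log2 difference of -0.97 ± 0.42 (SE, adjusted p = 0.968 by limma). Both Usp25-/- mice were below both others, and the difference was -0.48 without mouse WT-139. Vav1, Prkcd and Plcg2 had differences of -0.97, -0.73 and -0.56, which became -0.49, -0.42 and -0.59 without that mouse. Card9 turned from 0.38 to -0.33. The median of the list was -0.50, but 13 of the 17 genes were highest in mouse WT-139. Without it the median was -0.17, with 7 genes above 0 and 10 below.

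The inhibitory phosphatases and related regulators gave a like picture. All 6 were tested, all had lower means in Usp25-/- with a median log2 difference of -0.61, and all were highest in mouse WT-139. Ptpn6, the phosphatase SHP-1 recruited by ITIMs, was at 154 and 124 FPKM in Usp25+/+ and 55.5 and 87.3 FPKM in Usp25-/-. It did not overlap, with a log2 difference of -0.98 ± 0.37 (SE, adjusted p = 0.968 by limma). Without mouse WT-139 it was -0.82. Inpp5d, Ubash3b and Cbl differed by -0.78, -0.55 and -0.66, and by -0.48, -0.45 and 0.17 without that mouse, so Cbl turned sign. Groups did not overlap for 3 of the 6 genes, all with lower values, against 14.7% of all genes tested. Without mouse WT-139 the median was -0.20, with 3 genes above 0 and 3 below. By limma none of the 6 passed the adjusted threshold, and Ptpn6 alone had an unadjusted p under 0.05.

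Of 10 transcription factor genes downstream, 9 were tested and all 9 had lower means in Usp25-/-, with a median log2 difference of -0.55. By limma none passed the adjusted threshold and 0 had an unadjusted p under 0.05, while 5 did not overlap, all with lower values, against 14.7% of all genes tested. Egr3, an early response gene, was at 16.6 and 2.28 FPKM in Usp25+/+ and 2.04 and 1.67 FPKM in Usp25-/-, with mouse WT-139 far above the other 3. Its log2 difference was -1.42 ± 0.80 (SE, adjusted p = 0.968 by limma), and -0.20 without that mouse. Nfatc1, Egr2 and Rel differed by -0.53, -0.50 and -0.87, and by -0.46, -0.19 and -0.05 without that mouse. Without mouse WT-139 the median of the 9 genes was -0.18. Among the 4 most abundant receptors that signal towards these genes, Clec4n and Clec7a had log2 differences of 0.18 and 0.20, and Clec4e and Clec4d of -1.95 and -0.94. Without mouse WT-139 these were 0.01 and 0.04 for Clec4n and Clec7a, and 0.30 and 1.07 for Clec4e and Clec4d.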

How the data were processed

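Polyadenylated RNA from 4 mice, 2 per genotype, had been sequenced, per the labels. The authors deposited 1 table of FPKM values with 1 column per mouse. Bowtie 0.12.2 and the build mm9 are named in the submitters' processing notes. The tool behind the FPKM values, the annotation, strandedness and filters were not given in the sources used here. Column totals ran from 525993 to 565007. Sequencing depth is unknown: among genes low in both mice of a pair, the most frequent ratio was shared by only 0.648% to 1.77%, so whole reads were not recovered and no interval for counting error was given.

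Symbols turned into dates by a spreadsheet (27) were left out, leaving 24394 genes. Genes at 1 FPKM or more in at least 2 mice (12103) were tested on log2(FPKM + 1) with limma 3.58.1 in R 4.3.3, using its mean-variance trend and p-values for both directions, adjusted by Benjamini-Hochberg over these genes. The limma fit was tested on simulated data in which all genes spread alike between mice. That test checks the code and does not show how well the fit finds changes in these mice. The labels pair no mice, and a p-value here reflects only how these 4 mice vary, and part of that may be technical.

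All 32 Clec genes are named, and those at 1 FPKM or more in any mouse are given in full. Genes of other lists are the up to 4 with the smallest unadjusted p, or are named for their role in a Clec result, after their values were seen. The members and lists were chosen with earlier results of these data known. Positions come from the Gencode vM1 annotation of mm9, and 25 of the 32 genes had a promoter in the RefSeq table (GRCm38.p6). Python 3.11.15, pandas 2.3.3 and matplotlib 3.10.9 were also used. The settings varied were the pseudocount, low-value filter, scaling, variance model and the set of mice.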

Additional observations from a re-analysis of the deposited data

How the results depend on the processing

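No Clec gene passed the adjusted threshold under any setting with all 4 mice (pseudocount of 0.1, no filter, a floor of 1 FPKM in all 4 mice, 2 rescalings, limma without a trend). At an unadjusted p under 0.05, no filter on low values gave 2 Clec genes in place of 1, and the floor in all 4 mice gave 0 and left 0 with non-overlapping higher values, as Clec2f was then not tested. Signs of single genes held under these settings, except that Clec4a4 stood at -0.001 with median-of-ratios scaling. Leaving out each mouse in turn moved more. The number of non-overlapping higher Clec genes then ran from 2 to 7 and that of lower ones from 4 to 8. With 1 mouse left in a genotype, groups overlap less often by construction. The share of all genes without overlap is not given for these settings. These 2 ranges therefore cannot show whether the Clec genes differ from the background. The median difference of the Clec genes ran from -0.25 to 0.15. Single differences ran from -4.19 to 0.30 for Clec4e, -2.95 to 1.07 for Clec4d, -2.29 to 0.88 for Clec4a1, -1.48 to 0.17 for Clec14a, -1.40 to 0.20 for Clec1a, -0.64 to 0.37 for Clec10a, -0.60 to 1.97 for Clec1b, -0.57 to 0.80 for Clec4a3, -0.35 to 1.96 for Clec3b, -0.29 to 0.052 for Clec16a, -0.27 to 0.31 for Clec4a4, -0.20 to 0.29 for Clec9a, -0.16 to 1.04 for Clec4b1, -0.10 to 0.085 for Clec4a2 and -0.024 to 0.42 for Clec7a. Of the 20 tested genes, 9 turned sign without mouse WT-139, 2 without WT-140, 5 without KO-826 and 3 without KO-850. The cause was not tested. No paired analysis was possible because the labels give the mice no shared numbers.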

Other observations

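C-type lectins outside the Clec naming were also listed, 31 of them, of which 15 were tested, with 7 means higher in Usp25-/- and 8 lower. By limma none passed the adjusted threshold and 0 had an unadjusted p under 0.05. Mrc1, the macrophage mannose receptor, was at 149 and 193 FPKM in Usp25+/+ and 165 and 163 FPKM in Usp25-/-, below Clec7a and Clec4n in all 4 mice. Mgl2, the paralog of Clec10a, was at 1.74 and 6.13 FPKM in Usp25+/+ and 7.13 and 12.8 FPKM in Usp25-/-. Its groups did not overlap, with a log2 difference of 1.26 ± 0.56 (SE, adjusted p = 0.968 by limma), and one of 0.57 without mouse WT-139. The groups of Clec10a overlapped. Reg3g, Olr1 and Cd69 had differences of -1.15, -0.69 and -1.10, with overlapping groups. Without mouse WT-139 these were -0.54, -0.24 and 0.33, so Cd69 turned sign. The lung collectin Sftpd was at 172 and 176 FPKM in Usp25+/+ and 183 and 227 FPKM in Usp25-/-, while of the Reg lectins known from gut, Reg3g was at 79.7 and 33.6 FPKM in Usp25+/+ and 12.9 and 39.7 FPKM in Usp25-/-. Reg3b and Reg4 were listed at 0 in all 4 mice, and Reg3a in 3 of them.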
